A study of Mus musculus with 16 samples.

Results

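Accessible chromatin around Areg, Klrg1 and Il10 was examined in regulatory T cells (Treg cells) of mouse tissues and spleen. Amphiregulin, the product of Areg, is a ligand of the epidermal growth factor receptor. Klrg1 encodes an inhibitory receptor of the lectin-like family that binds cadherins, and Il10 encodes the cytokine interleukin-10. The members were the open chromatin regions of the deposited list that overlap 1 of 3 windows on genome build mm9. The windows were chromosome 5 from 91.52 to 91.62 Mb for Areg, chromosome 6 from 122.17 to 122.28 Mb for Klrg1, and chromosome 1 from 132.85 to 133.05 Mb for Il10. Of 75363 regions in the list, 76 were members (0.101%): 10 in the Areg window, 18 in the Klrg1 window and 48 in the Il10 window. The gene positions used below are 91.57 Mb for Areg, 122.22 Mb for Klrg1 and 132.92 Mb for Il10, each rounded to 10 kb, so a distance from them can be off by about 5 kb.

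The assay was ATAC-seq, in which a transposase inserts adapters into DNA that is free of nucleosomes. CD4+CD25+ Treg cells of C57BL/6 mice gave 16 samples from 8 mice: epididymal visceral adipose tissue (VAT) of 2 mice, injured hindlimb muscle of 2 mice, colonic lamina propria of 4 mice (2 titled Nrp1p and 2 titled Nrp1n), and the spleen of each of these mice. The sources used here do not give mouse age, the kind of injury or the time after it. All samples share the strain and the sort on CD4 and CD25, and the labels name no other allele or agent. The list is common to all 16 samples and holds no value per sample, so it gives where chromatin was accessible in the series but not in which tissue. Treg identity could not be checked against marker genes for the same reason, and the depth behind each region is unknown.

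Treg cells suppress other immune cells and, in tissues, also take part in repair. Treg cells in injured muscle are known to make amphiregulin, which acts on cells of the tissue. Interleukin-10 is a main suppressive product of Treg cells in the gut, and Klrg1 marks effector Treg cells at a late stage of differentiation. Promoters and distal enhancers of active or poised genes appear in ATAC-seq as short accessible regions, often several to a gene.

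The sequence just before the start of Areg is shown first, because it is the regulatory sequence of a member that the reference tables hold. Of the 3 genes, 1 had an entry in the RefSeq promoter table (build GRCm38.p6). The entry for Areg lies on the plus strand, and its 250 bases before the start are chr5:91139349-91139598 on that build, which cannot be set against the mm9 positions of the regions. Capitals mark matches to the motifs searched.

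Areg: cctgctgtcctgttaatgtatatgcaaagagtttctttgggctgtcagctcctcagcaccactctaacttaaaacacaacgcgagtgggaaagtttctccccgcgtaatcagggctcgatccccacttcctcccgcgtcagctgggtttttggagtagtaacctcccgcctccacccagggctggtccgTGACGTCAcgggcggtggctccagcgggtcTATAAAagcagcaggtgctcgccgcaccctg

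Upstream of Areg the search, run on both strands, found 2 of 10 motifs, without overlap. A cyclic AMP response element (CRE, TGACGTCA), the site that CREB and ATF proteins bind, ended 54 bases before the start. A TATA box (TATAAA), which positions the transcription machinery, ended 26 bases before the start. The CRE letters occurred in 1.55% of the 32851 upstream sequences of the table and the TATA letters in 12.4%. Both together occurred in 39 sequences (0.119%), a count chosen after the Areg matches were seen. At least 2 of the 10 motifs, whichever they were, occurred in 10.8% of the sequences, and the median sequence held 0. The other motifs searched, without a match in these 250 bases, were TGANTCA (AP-1), TGTGGTT (RUNX), CCGGAAGT (ETS), TGTTTAC (FOX), AGATAA (bound by GATA factors), GGGANNTTC (the first 9 letters of an NF-kB site), TTCNNNGAA (STAT) and TGCTGAC (a core of MAF sites). These were found in 6.75%, 4.40%, 2.88%, 3.17%, 9.99%, 3.23%, 7.02% and 3.81% of the table's sequences. The G and C content was 57.2%, against a median of 52.4% over the table.

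The Areg window held 10 regions in 100 kb, which covered 1956 bp or 1.96% of it. Most of them formed 2 small groups, 1 about 14 to 17 kb before the stated position of Areg and 1 around it. A lone region of 172 bp (chromosome 5, 91535376 to 91535547) lay first, 35 kb before the stated position. The upstream group had 4 regions. They measured 153 bp (91552578 to 91552730), 297 bp (91553218 to 91553514), 187 bp (91554101 to 91554287) and 327 bp (91555666 to 91555992), the last being the widest of the window. Between this group and the next lay 12414 bp without a region.

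Around the stated Areg position there were 3 regions within 1.5 kb. They measured 253 bp (91568407 to 91568659), 94 bp (91568790 to 91568883) and 132 bp (91570085 to 91570216). The first 2 of them were 130 bp apart. A further pair, 7.3 and 8.3 kb past the position, measured 171 bp (91577187 to 91577357) and 170 bp (91578177 to 91578346). No region followed for 49.4 kb, up to 91627729, so the last 41.7 kb of the window were empty. Counted in bins of 10 kb, 6 of the 10 bins of the window had no region.

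The Klrg1 window held 18 regions in 110 kb, covering 4054 bp or 3.69% of it. All 18 were linked at gaps under 12500 bp into 1 cluster of 56.6 kb (chromosome 6, 122202238 to 122258790). The largest gap inside the cluster was 7826 bp. Of the 18 regions, 5 had their middle before the stated position of Klrg1 and 13 past it. The 3 nearest regions measured 234 bp (122220210 to 122220443), 197 bp (122219273 to 122219469) and 217 bp (122224640 to 122224856), and all lay within 4.75 kb of that position.

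The widest regions of the Klrg1 cluster lay past the stated position. They measured 336 bp (122247861 to 122248196), 334 bp (122233572 to 122233905) and 310 bp (122232683 to 122232992). The last 2 are neighbours 579 bp apart, about 13 kb past the position. The fullest 10 kb bin, with 5 regions, ran from 20 to 30 kb past it and held the narrowest region (134 bp, 122240235 to 122240368) and the widest. The cluster began with a region of 188 bp (122202238 to 122202425) and ended with one of 192 bp (122258599 to 122258790).

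The start of the Klrg1 cluster was also the end of a long stretch without regions. The region before it lay 885 kb away, with none between 121316852 and 122202237 on chromosome 6. Gaps of that length or more made up 0.605% of the list's gaps between neighbours (456 of 75342). On the other side the next region came after 30.6 kb. Whether the empty stretch was closed, poorly mappable or left out in processing was not tested.

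The Il10 window held 48 regions in 200 kb, covering 9714 bp or 4.86% of it. They fell into 3 clusters linked at 12500 bp, separated by empty stretches of 15.3 kb (132961157 to 132976453) and 12.97 kb (133018853 to 133031821). The first cluster, which spans the stated position of Il10, held 26 regions over 85.0 kb (chromosome 1, 132876170 to 132961156). The second held 15 regions over 42.4 kb (132976454 to 133018852). The third held 8 regions over 20.5 kb (133031822 to 133052314) and ran out of the window, with 7 of its regions inside.

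Near the stated position of Il10 the regions were close together. The 3 nearest measured 269 bp (132919240 to 132919508), 280 bp (132918104 to 132918383) and 163 bp (132922394 to 132922556). The narrowest of the 6 regions within 5 kb measured 94 bp (132924698 to 132924791), a width shared by 2 others in the window (133009321 to 133009414 and 133035166 to 133035259). These 6 regions were set off on both sides by about 10 kb without a region (10013 bp before and 9944 bp after).

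The widest region of the Il10 window, 370 bp (132935265 to 132935634), lay 15 kb past the stated position, beyond the second of these gaps. Next in width came regions of 327 bp (132957208 to 132957534), 37 kb past it, and 309 bp (133007481 to 133007789), 88 kb past it. The last of these is in the second cluster, in the fullest 10 kb bin of the window, with 6 regions 80 to 90 kb past the position. The first cluster began with a region of 166 bp (132876170 to 132876335) and ended with one of 151 bp (132961006 to 132961156). The second began with one of 251 bp (132976454 to 132976704) and ended with one of 164 bp (133018689 to 133018852). The third began with one of 184 bp (133031822 to 133032005), and the last region inside the window measured 171 bp (133049662 to 133049832).

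**Figure D1:**
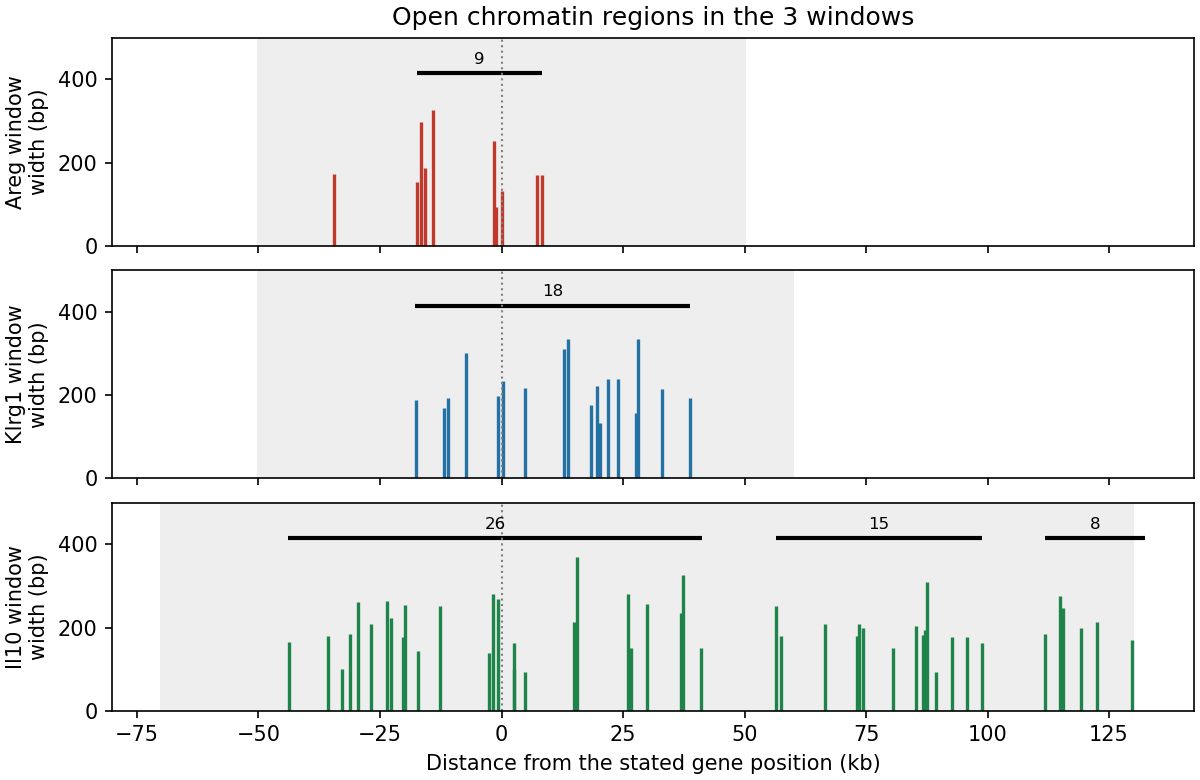
Each vertical line is 1 open chromatin region, at its distance in kb from the stated gene position (horizontal axis, dotted line at 0) and as tall as its width in bp (vertical axis); grey marks the window. Black bars are clusters linked at gaps under 12500 bp with their number of regions: 9 in the Areg window, 18 in the Klrg1 window, and 26, 15 and 8 in the Il10 window.

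Regions in the Il10 window lay mostly past the stated position of Il10. Of the 48, 15 had their middle before it and 33 past it, though the window also reaches further on that side (130 kb against 70 kb). Within 50 kb, where both sides are alike, 15 lay before and 11 past it. In the order of the gene table (GRCm38.p6), Mapkapk2, which encodes a kinase downstream of p38, and Dyrk3, another protein kinase gene, follow Il10, and Il19, Il20 and Il24, cytokine genes of the interleukin-10 family, come before it. The first 26.2 kb of the window had no region, as part of an empty stretch of 101 kb from 132775173 to 132876169. No position of these neighbours on mm9 was used here, so regions could not be assigned to Il10, to its neighbours or to the space between them, and whether the window reaches Il19, Il20 and Il24 was not tested.

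The neighbours of the other genes were read from the same order. Areg stands between Ereg and Btc, with Epgn beyond Ereg. All 4 encode ligands of the epidermal growth factor family. Klrg1 stands between Mug2, a gene of the alpha-2-macroglobulin family, and M6pr, which encodes a mannose 6-phosphate receptor, with Phc1, a Polycomb gene, next to M6pr. The long stretch without regions lies on the lower-coordinate side of Klrg1, where the table lists Mug2, Mug1 and A2m; that this order holds on mm9 was not tested.

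The windows differ in length, so they were compared at a common length of 100 kb around each stated position. These held 10 regions at Areg, 18 at Klrg1 and 26 at Il10. Within 5 kb of the stated position there were 3 regions at Areg, 3 at Klrg1 and 6 at Il10. Within 10 kb there were 5 regions at Areg, 4 at Klrg1 and 6 at Il10, and within 20 kb there were 9, 11 and 11. Further out, from 10 to 50 kb, there were 5 at Areg, 14 at Klrg1 and 20 at Il10. Moving each position by up to 5 kb in steps, for its rounding, gave 3 to 5 regions within 10 kb at Areg, 4 to 6 at Klrg1 and 6 to 7 at Il10. Within 5 kb, positions shifted back and on by 5 kb held 2 and 3 regions at Areg, 2 and 2 at Klrg1, and 3 and 3 at Il10. Shifted on, Areg and Il10 were equal, so the higher count at Il10 within 5 kb is not kept within the rounding. Regions are not replicates and the list has no value per sample, so these differences have no test.

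**Figure D2:**
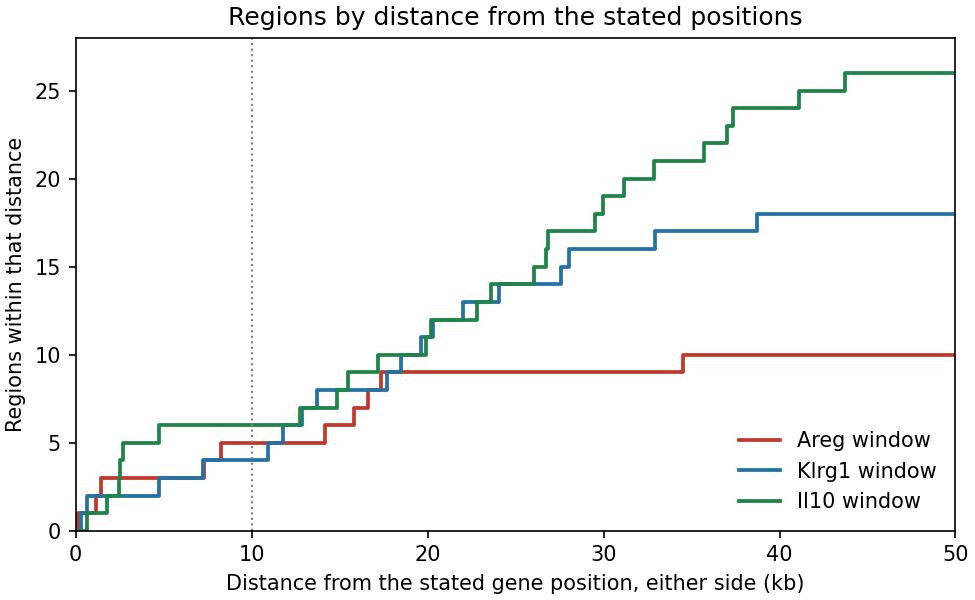
Number of regions (vertical axis) within a given distance in kb of the stated gene position, both sides together (horizontal axis); the dotted line marks 10 kb. Within 5 kb the lines stand at 3, 3 and 6 regions and within 20 kb at 9, 11 and 11, and they end at 10 for Areg, 18 for Klrg1 and 26 for Il10. The counts within 5 kb can change when the positions are shifted for their rounding.

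All 3 windows held more regions than most stretches of their length. Chromosomes 1 to 19 and X were laid out in end-to-end tiles, and the tiles with at least as many regions as a window were counted. For 100 kb around Areg, 10.2% of 26344 tiles held as many, for Klrg1 2.10% and for Il10 0.235% (62 tiles). The median tile of that length held 0 regions, and 54.6% of tiles held none. For the windows at their own lengths the shares were 10.2% at Areg (100 kb), 2.73% at Klrg1 (110 kb) and 0.129% at Il10 (200 kb, 17 of 13167 tiles). For 20 kb around the stated positions, the shares of 20 kb tiles with as many regions were 2.85% at Areg, 5.10% at Klrg1 and 1.54% at Il10. Only 24.0% of the 20 kb tiles held any region. Here regions were counted by their middles around the positions and by overlap in the tiles. At 20 kb Areg and Klrg1 differ by 5 against 4 regions, and their order is not kept within the rounding of the positions: with both shifted back by 5 kb they held 4 and 6, and shifted on by 5 kb, 5 and 5.

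**Figure D3:**
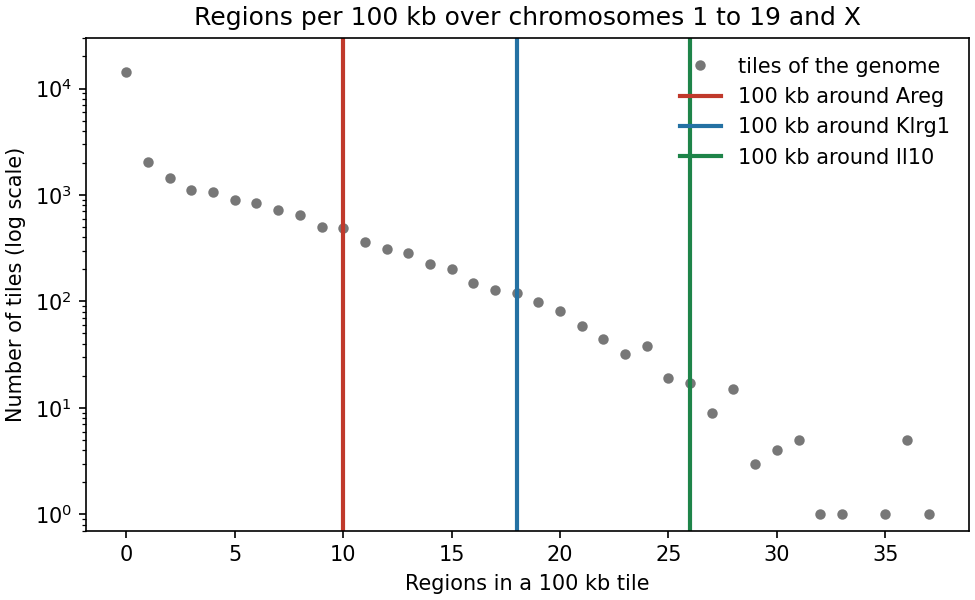
Number of 100 kb tiles (vertical axis, log scale) by the number of regions they hold (horizontal axis), over chromosomes 1 to 19 and X. Lines mark the 100 kb around Areg (10 regions), Klrg1 (18) and Il10 (26); tiles reach 37 regions, and 10.2%, 2.10% and 0.235% of them hold as many as the respective window.

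In clusters, too, the Il10 window stood highest. Linked at 12500 bp, the list formed 24047 clusters, lone regions included (12.9% of the list's regions). Of these clusters, 4495 held 5 or more regions. The shares that follow are out of all 24047 and would be larger without the lone regions. Clusters of at least 26 regions, as in the Il10 window, numbered 91 (0.378%). Clusters of at least 18, as at Klrg1, numbered 294 (1.22%), and those of at least 9, as at Areg, 1482 (6.16%). The mean rate within the clusters was 3.49 regions per 10 kb at Areg, 3.18 at Klrg1, and 3.06, 3.54 and 3.90 in the 3 clusters of the Il10 window, although the Areg cluster is made of tight groups around a gap of 12414 bp. The share of cluster length inside regions was 6.92% at Areg, 7.17% at Klrg1 and 6.41% to 7.50% at Il10. The clusters of 26 and 18 regions were longer than that of 9 (85.0 and 56.6 kb against 25.8 kb), and their mean rates were not higher.

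Each window was also set against the 1 Mb on both sides of it. The Areg window, at 10.0 regions per 100 kb, had 2.13 times the 4.70 of its surroundings, and 2 of the 20 surrounding 100 kb bins held as many. The Klrg1 window, at 16.4 per 100 kb, had 4.61 times the 3.55 of its surroundings, which include most of the long stretch without regions. Of the 20 bins around it 12 were empty, and 1 held more regions than the window's rate, with 27. The Il10 window, at 24.0 per 100 kb, had 4.71 times the 5.10 of its surroundings, and none of its 20 bins reached its rate. The fullest of them, with 18 regions, was the bin right after the window. Regions were fewer before the Il10 window than after it, with 26 and 76 in 1 Mb, and the same held at Klrg1, with 16 and 55. At Areg the sides were the other way round, with 63 before and 31 after. Per 100 kb, the sides before held 6.3 (Areg), 1.6 (Klrg1) and 2.6 (Il10) regions, and those after 3.1, 5.5 and 7.6. The ratios above use both sides together, and their contrast between windows depends on which side is taken.

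**Figure D4:**
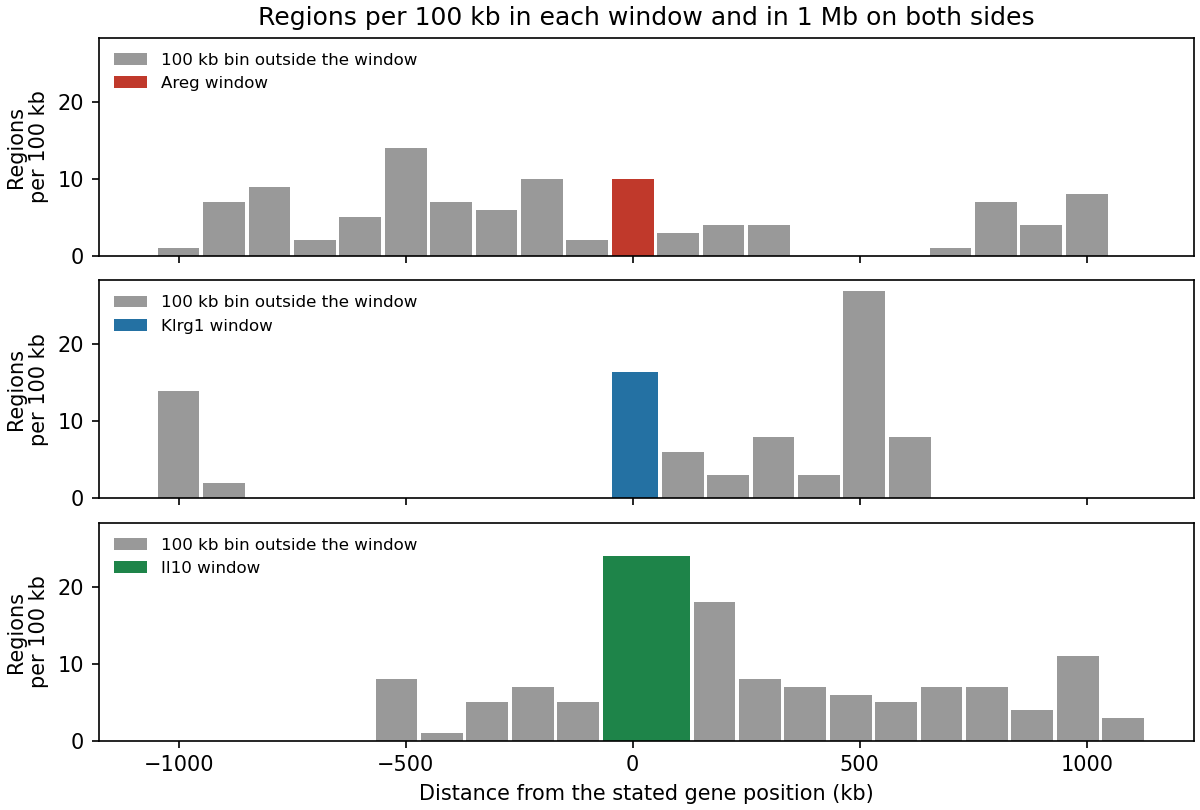
Regions per 100 kb (vertical axis) in each window (coloured, as wide as the window) and in 100 kb bins over 1 Mb on both sides (grey), by distance in kb from the stated gene position (horizontal axis). The windows stand at 10.0 (Areg), 16.4 (Klrg1) and 24.0 (Il10), and 8 empty bins precede the Klrg1 window.

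Region widths overlapped between the windows. The median was 171.5 bp at Areg (range 94 to 327), 215.5 bp at Klrg1 (134 to 336) and 197 bp at Il10 (94 to 370), against 191 bp in the whole list. The 95% intervals of these medians, from binomial ranks, were 132 to 297, 188 to 239 and 178 to 214 bp, and they overlapped. They take regions as independent draws and do not describe the spread between mice. Above the list's median were 3 of 10 regions at Areg, 13 of 18 at Klrg1 and 25 of 48 at Il10. Over 250 bp were 3, 4 and 13 regions, together 26.3% of the 76, against 15.8% of the list.

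Some regions had 1 of 12 exact widths, from 94 to 150 bp, that are far more frequent in the list than the widths beside them. These made up 2 of 10 regions at Areg, 1 of 18 at Klrg1 and 8 of 48 at Il10, together 14.5%, near the 14.2% of the list. At Areg they were 2 of the 3 regions within 5 kb of the stated position, of 132 and 94 bp. At Il10 they included 3 of the 6 regions within 5 kb of it. Both counts depend on the rounding of the positions. The part of the region calling in these widths was not tested, and a narrow width at these sites may not be a measure of the extent of open chromatin.

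**Figure D5:**
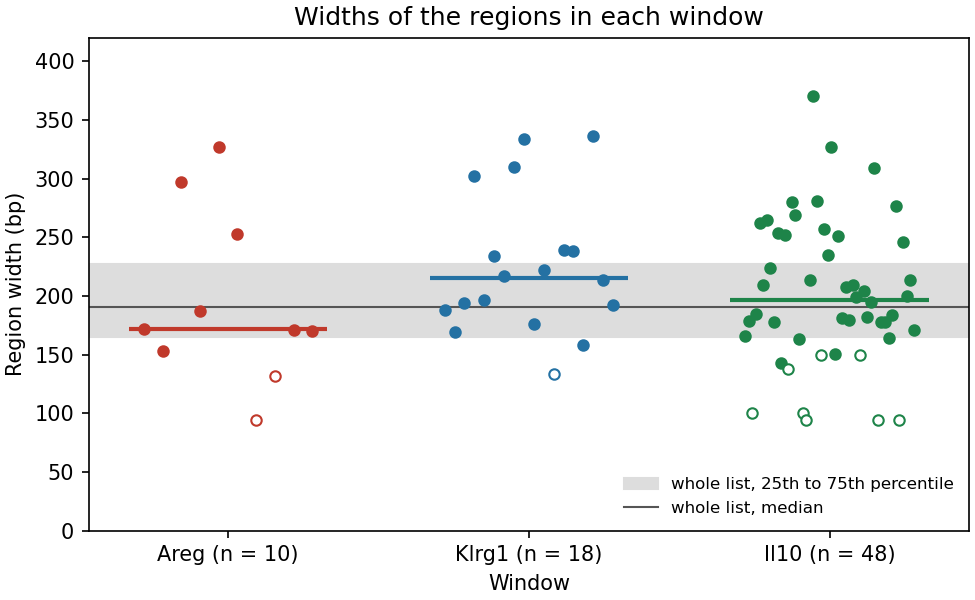
Width in bp (vertical axis) of every region in the 3 windows, in order of position from left to right within a window; open circles are the exact widths frequent in the whole list, coloured lines the window medians (171.5, 215.5 and 197 bp). Grey marks the list's median (191 bp) and its 25th to 75th percentiles (165 to 227 bp), and the windows overlap.

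Neighbours less than 500 bp apart can belong to 1 open site whose middle is held by a nucleosome or a bound factor. Such pairs numbered 2 in the Areg window, 2 in the Klrg1 window and 10 in the Il10 window. The share of regions with a neighbour that close was 40%, 22.2% and 37.5%, and 38.7% in the list. The distance between the middles of the pairs was 303.5 and 712 bp at Areg, 421 and 671 bp at Klrg1, and 197.5 to 675.5 bp at Il10. At Il10, 2 runs of 3 regions, singled out after their values were seen, each joined a pair of such gaps. The first (133006707 to 133007789) had gaps of 213 and 184 bp, and the second (133034811 to 133035564) had gaps of 78 and 59 bp. From 1 region to the next the median gap was 1201 bp at Areg, 3371 bp at Klrg1 and 2694 bp at Il10, each below the 5200.5 bp of the list.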

How the data were processed

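The deposited file, made by the authors from 16 ATAC-seq samples of 8 mice, lists regions by chromosome, start and end, per its header. The start was taken as the base before the first base of a region, which the header does not state. Build mm9 and the tools HOMER 4.6, Picard 1.130, SAMtools 1.3, Bowtie2 2.2.4 and cutadapt 1.8.3 are listed, without roles or settings, in the submitters' processing notes. The sources used here do not say how peaks were combined over samples or whether insertion positions were shifted, and both would move region edges. No column for a sample was left unmapped. The windows, lists and alternatives were chosen with earlier results of these data known.

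Regions that overlap a window were members, with positions counted from 1. Distances run from a region's middle. Neighbours were linked where the gap was under 12500 bp. Tiles ran from the first base of each chromosome to its last region, full tiles only. A width stood out where it held over 5 times the median number at the widths within 8 bp (median taken as at least 10). Every region was named in a window of up to 15. Otherwise the 3 widest, the narrowest, the 3 nearest to the gene and the ends of clusters of 5 or more were named. Gene order came from the GRCm38.p6 table, 5 protein-coding genes on each side; its positions were not used. Overlap with exons and promoters and the comparison of tissue with spleen, planned for annotation on mm9 or values per sample, were not run. The functions were tested on simulated data (Python 3.11.15, numpy 2.4.6).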

Additional observations from a re-analysis of the deposited data

How the results depend on the processing

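No paired analysis was possible because regions are listed without values for single samples, which also prevents leaving out replicates. Of 37 alternatives, 25 left their value within 1.5 times (counts) or within its 95% interval (median widths and shares of tiles). The intervals of the shares take tiles as independent draws, which neighbouring tiles are not. Not all of the 25 could differ. The 100 kb centred on Areg is its window itself, and a motif search over 300 bases, with 50 after the Areg start, could not find fewer motifs. With only regions of median width or more, 3 regions were left at Areg, 13 at Klrg1 and 25 at Il10. These windows are 100, 110 and 200 kb long, so the rates of Klrg1 and Il10 were then much closer to each other. In 200 kb around the stated positions the rate fell to 6.0 regions per 100 kb at Areg and 10.5 at Klrg1, since the added ends held few regions. Among tiles with at least 1 region, the share with as many as the window was 22.5% at Areg, 5.84% at Klrg1 and 0.238% at Il10, by construction, and with tiles shifted by 50% of their length it was 0.0760% at Il10. With links of 5 kb the largest cluster held 4 regions at Areg, 10 at Klrg1 and 11 at Il10, and with links of 25 kb it held 49 at Il10. The order Areg, Klrg1, Il10 by largest cluster was the same at all 3 link lengths. At 5 kb, however, Klrg1 and Il10 were nearly alike (10 against 11 regions), and neither of these clusters spanned the stated gene position. The Il10 window is also longer (200 against 110 kb), which gives more room for a large cluster. Leaving out the exact widths (8, 17 and 40 regions left) and shifting the stated positions by 5 kb were chosen after seeing the data. Depth is unknown, so a stretch without regions is not shown to be closed.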
